A study of Mus musculus with 12 samples.

Results

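Glutathione peroxidases, catalase, superoxide dismutases and peroxiredoxins are the enzymes with which a cell disposes of superoxide and peroxides. The 9 genes described here were Gpx1, Gpx3, Gpx4, Cat, Sod1, Sod2, Prdx2, Prdx5 and Prdx6, of 12960 genes with estimated counts, and all 9 were among the 10822 genes that passed the filter on low counts and were tested. They were selected by symbol, and the group was chosen by a measured value as well: Gpx3 had been seen among the genes with the largest falls in AMPKβ1-/- macrophages. That choice does not name the treatment, and the genotypes had been compared with vehicle in the earlier results. The difference between the genotypes with vehicle is therefore given here as a description without a test for all 9 genes, and that of Gpx3 is so with PF as well.

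RNA was sequenced from bone marrow-derived macrophages (BMDMs), cells grown from marrow in medium conditioned by L929 cells as a source of M-CSF, the growth factor that drives marrow cells to become macrophages. They came from WT mice or from AMPKβ1-/- mice, which lack the β1 regulatory subunit of AMP-activated protein kinase in the whole body, so the deletion was present in the marrow before the cells became macrophages. Cells received vehicle (0.1% DMSO) or 10 µM PF-06409577 (PF), a direct activator of AMPK complexes that contain β1, for 6 h, which gave 4 groups of 3 libraries. The age and sex of the mice are not given in the sources used here, nor is it stated whether libraries of a group came from different mice or whether vehicle and PF cultures shared mice, so the p-values below measure the spread between these libraries, which may be technical.

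Libraries held 8935609 to 14358180 assigned counts, and values are given as CPM, the counts of a gene relative to those of its whole library, after TMM normalization. Prkab1, the gene of the deleted subunit, had 37.3 to 45.3 CPM in the WT libraries and 6.05 to 9.42 CPM in the AMPKβ1-/- libraries. All 8 macrophage markers were tested and summed to 25191 to 29681 CPM, while markers of granulocytes (5 of 8 in the table, at most 7 counts) and erythroid cells (1 of 7 in the table, at most 11 counts) were near 0, and the lists of 6 lymphoid and 5 adipocyte markers had 0 genes in the table. Fibroblast markers (5 of 6 in the table) summed to 0.92 to 8.66 CPM, with the highest sum in AMPKβ1-/- vehicle library 1. The slope of log2 CPM on GC content, per 10 percentage points and relative to the mean of all libraries, ran from 0.36 to 0.72 in WT vehicle, from −0.052 to 0.37 in WT PF, from −0.36 to −0.10 in AMPKβ1-/- vehicle and from −0.51 to −0.33 in AMPKβ1-/- PF libraries. Values with the trend of each library in GC content and transcript length removed are therefore given beside the differences between the genotypes and where they end or turn a call that is named.

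Superoxide dismutases turn superoxide into hydrogen peroxide, Sod1 in the cytosol with copper and zinc and Sod2 in mitochondria with manganese. Catalase breaks hydrogen peroxide down in peroxisomes, glutathione peroxidases reduce peroxides at the expense of glutathione, and most peroxiredoxins do so at the expense of thioredoxin. Macrophages make superoxide on purpose with the phagocyte NADPH oxidase, and these enzymes help to set how much peroxide remains in and around the cell.

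The 9 genes lie apart from one another on GRCm38, at chr9:108338903-108340343 (Gpx1), chr11:54902453-54910377 (Gpx3), chr10:80047166-80056439 (Gpx4), chr2:103453849-103485160 (Cat), chr16:90220754-90226329 (Sod1), chr17:13006846-13040063 (Sod2), chr8:84969587-84974834 (Prdx2), chr19:6906697-6910106 (Prdx5) and chr1:161240112-161251219 (Prdx6). Gpx1, Gpx3 and Gpx4 share a feature that the choice of genes did not use: their active site holds selenocysteine, encoded by a TGA triplet that elsewhere ends translation. The GENCODE M21 annotation of GRCm38 marks such a codon in these 3 genes and in none of the other 6. It lies at chr9:108339451-108339453 in exon 1 of 2 of Gpx1, at chr11:54907256-54907258 in exon 2 of 5 of Gpx3 and at chr10:80054737-80054739 in exon 3 of 7 of Gpx4, all on the plus strand. The transcript around it is shown for each, 5′ to 3′ with 12 bases on either side and the selenocysteine codon in capitals, because it is what separates these 3 members from the peroxiredoxins.
Gpx1: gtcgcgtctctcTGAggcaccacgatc
Gpx3: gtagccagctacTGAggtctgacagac
Gpx4: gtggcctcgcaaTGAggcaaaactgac

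The promoters of the member with the largest difference between the genotypes, Gpx3, and of the member that passed the test for PF in WT BMDMs, Gpx1, are shown as the 250 bases before the transcription start in RefSeq on GRCm38.p6, both on the plus strand. Capitals mark matches, on either strand, to the GC box GGGCGG and to the CCAAT box, which here lies on the reverse strand. The Gpx3 window, chr11:54902604-54902853, had a GC content of 55.2%, 11 CpG, 1 GC box and 1 CCAAT box. The Gpx1 window, chr9:108338830-108339079, had a GC content of 42.0%, 7 CpG and no match to any motif searched. By the gene coordinates given above, which start earlier than RefSeq, the Gpx3 window lies within Gpx3. The Gpx1 window begins before Gpx1 and ends within it.
Gpx3 promoter: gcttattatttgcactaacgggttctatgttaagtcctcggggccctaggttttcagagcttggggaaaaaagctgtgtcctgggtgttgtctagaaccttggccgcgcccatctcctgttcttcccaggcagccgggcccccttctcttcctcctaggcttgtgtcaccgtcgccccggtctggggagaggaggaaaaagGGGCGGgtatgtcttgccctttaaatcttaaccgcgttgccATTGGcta
Gpx1 promoter: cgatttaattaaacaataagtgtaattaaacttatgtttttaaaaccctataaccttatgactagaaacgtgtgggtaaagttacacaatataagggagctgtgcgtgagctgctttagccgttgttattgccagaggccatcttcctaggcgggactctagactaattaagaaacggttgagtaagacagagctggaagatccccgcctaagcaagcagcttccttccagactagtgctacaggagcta

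Of the 9 members, 8 had an entry in the promoter table and Prdx6 had none. Over all 32817 promoter windows of this length the median GC content was 52.4% with 6 CpG, and GGGCGG was found in 32.7% and CCAAT in 33.8%. The core of the antioxidant response element bound by NRF2, TGACNNNGC, was found in 10.2% of windows and, among the members, in that of Sod1 (chr16:90220512-90220761) alone, which also held the only match to TATAAA, found in 12.4% of windows. The FOXO motif TGTTTAC was found in 3.16% of windows and in those of 0 members. These are matches of letters and not sites of binding.

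In WT BMDMs with vehicle, the mRNAs of this group ran from Gpx1, at 938 ± 122 CPM per kb of transcript (SD, n = 3), down to Sod2, at 21.6 ± 1.36. Levels per kb use the length of the longest coding transcript. By CPM without division by length, Sod2 (126 ± 7.98) stood above Prdx6 (96.1 ± 8.33) and Gpx3 (56.1 ± 9.34) in WT vehicle. Gpx4, which reduces lipid peroxides in membranes, had 638 ± 112 and Sod1 had 547 ± 91.3, and the libraries of these neighbours overlapped. Prdx5, a peroxiredoxin found in mitochondria, peroxisomes and cytosol, followed at 291 ± 35.9, and Prdx2, a cytosolic peroxiredoxin, at 204 ± 23.9. Cat was at 57.4 ± 5.48. Prdx6, which can also act on phospholipids, was at 40.2 ± 3.49 and overlapped with Gpx3, the secreted plasma glutathione peroxidase, at 35.2 ± 5.86. In AMPKβ1-/- BMDMs with vehicle, Gpx1 was first at 778 ± 68.1, Sod1 (434 ± 25.8) stood above Gpx4 (373 ± 20.2), and Gpx3 was last at 8.08 ± 0.853, below Sod2 at 24.2 ± 0.680, with no overlap between neighbours. The same order was found in AMPKβ1-/- BMDMs with PF, again with no overlap between neighbours. With PF, the WT order was that of WT vehicle, but Gpx1 (686 ± 72.0), Gpx4 (596 ± 57.1) and Sod1 (531 ± 32.0) each overlapped with the next.

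The summed CPM of the 9 members was 3117 ± 381 in WT vehicle, 2726 ± 183 in WT PF, 2416 ± 106 in AMPKβ1-/- vehicle and 2367 ± 98.0 in AMPKβ1-/- PF libraries (SD, n = 3). Gpx1 gave 32.2%, 26.9%, 34.5% and 36.5% of these sums, in the same order.

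**Figure D1:**
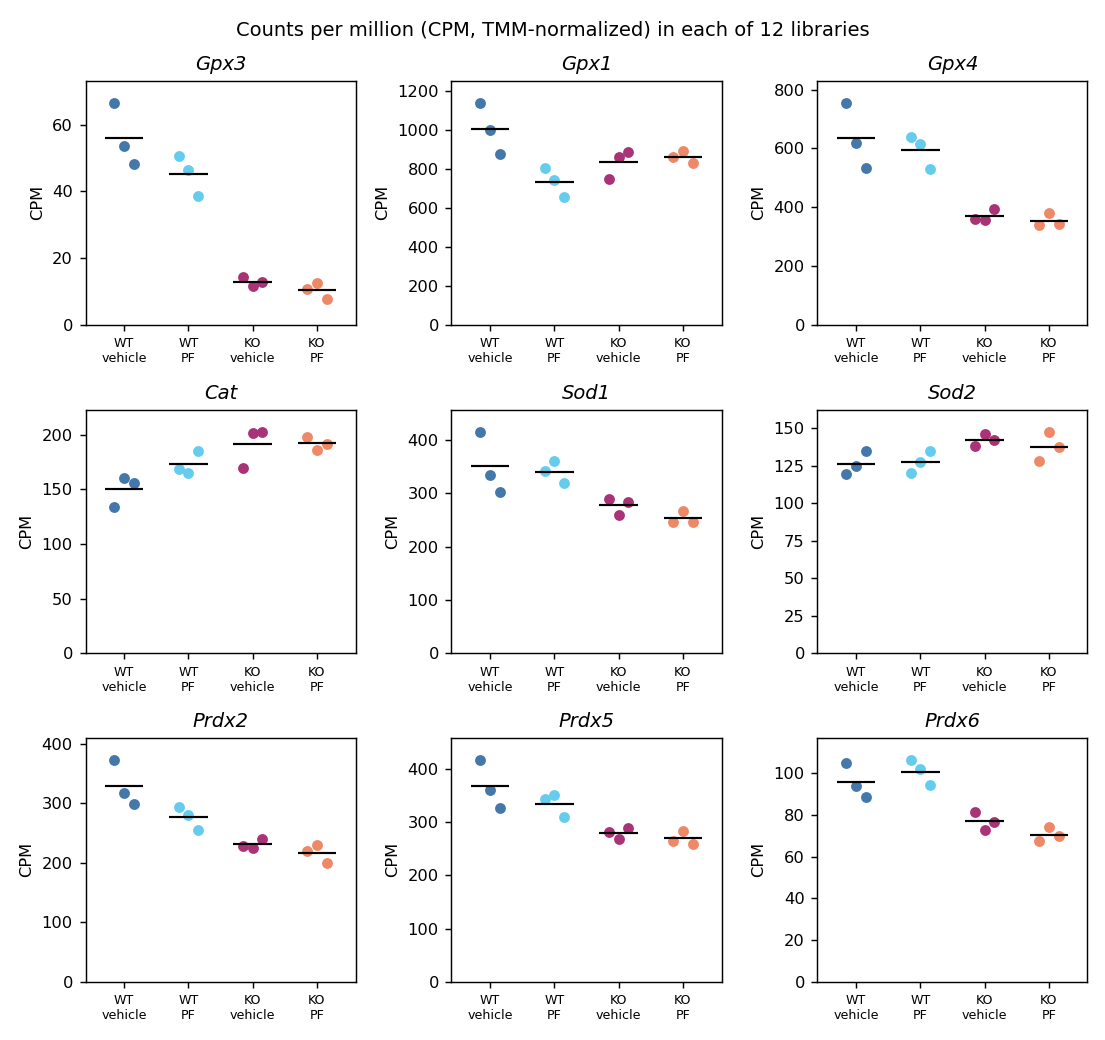
CPM (TMM-normalized, y axis from 0, its scale differing between panels) of each of the 9 genes in the 12 libraries. Each point is a library, in the groups WT vehicle, WT PF, AMPKβ1-/- (KO) vehicle and AMPKβ1-/- PF, and lines are group means. All 6 AMPKβ1-/- libraries sit at or below 14.3 CPM for Gpx3, where the WT libraries sit at 38.8 CPM or above.

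Gpx3 had the widest gap between genotypes. WT libraries 1, 2 and 3 had 66.5, 53.5 and 48.4 CPM with vehicle and 50.7, 46.3 and 38.8 CPM with PF. AMPKβ1-/- libraries had 14.3, 11.6 and 12.7 CPM with vehicle and 10.8, 12.6 and 7.81 CPM with PF. The highest AMPKβ1-/- library was thus below the lowest WT library, and the lowest count behind these values was 84. With vehicle, the level in AMPKβ1-/- BMDMs was 0.229 times that in WT (log2 fold change −2.13, SE 0.16), the fifth lowest of the 10822 log2 fold changes. With PF it was 0.231 times that in WT (log2 fold change −2.11, SE 0.17), the 11th lowest. Both values are descriptions, since the fall of Gpx3 led to the choice of the group. With the GC and length trend removed, the log2 fold changes were −1.57 with vehicle and −1.68 with PF, and over 16 alternative settings the latter ran from −2.28 to −1.68.

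Gpx4 also stood lower in AMPKβ1-/- BMDMs. WT libraries had 754, 617 and 532 CPM with vehicle and 637, 614 and 529 CPM with PF. AMPKβ1-/- libraries had 362, 357 and 394 CPM with vehicle and 341, 379 and 343 CPM with PF. No AMPKβ1-/- library reached the lowest WT library. The log2 fold change was −0.77 (SE 0.11) with vehicle and −0.74 (SE 0.11, adjusted p = 0.000102, edgeR quasi-likelihood test) with PF. Gpx4 had a GC content of 60.2%, above that of 96.1% of the tested genes. Without the GC and length trend the log2 fold changes were −0.15 with vehicle and −0.23 (adjusted p = 0.0146) with PF.

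Gpx1, the abundant cytosolic glutathione peroxidase, did not follow them. WT libraries had 1138, 1002 and 877 CPM with vehicle and 807, 743 and 654 CPM with PF. AMPKβ1-/- libraries had 751, 864 and 888 CPM with vehicle and 863, 894 and 833 CPM with PF. The genotypes overlapped with vehicle (log2 fold change −0.27, SE 0.10) and did not with PF, where the AMPKβ1-/- libraries were higher by 0.23 on the log2 scale (SE 0.10), which missed the threshold (adjusted p = 0.0714). With the GC and length trend removed the log2 fold changes were 0.33 with vehicle and 0.75 (adjusted p = 1.92e-06) with PF, one of 6 among 16 alternative settings under which Gpx1 passed between genotypes with PF.

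Prdx6 was lower in AMPKβ1-/- than in WT BMDMs under both treatments. WT libraries had 105, 94.1 and 88.9 CPM with vehicle and 106, 102 and 94.2 CPM with PF. AMPKβ1-/- libraries had 81.6, 72.8 and 76.7 CPM with vehicle and 67.7, 74.2 and 69.9 CPM with PF. The genotypes did not overlap under either treatment. The log2 fold change was −0.32 (SE 0.086) with vehicle and −0.51 (SE 0.086, adjusted p = 0.000262) with PF, and −0.26 and −0.36 (adjusted p = 0.00099) with the trend removed.

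Prdx2 and Prdx5 were lower in every AMPKβ1-/- library than in every WT library with the same treatment. Prdx2 had 373, 317 and 298 CPM in WT vehicle, 293, 280 and 255 in WT PF, 228, 225 and 239 in AMPKβ1-/- vehicle and 220, 231 and 200 in AMPKβ1-/- PF libraries. Prdx5 had 416, 360 and 327 CPM in WT vehicle, 342, 351 and 309 in WT PF, 281, 268 and 288 in AMPKβ1-/- vehicle and 265, 284 and 259 in AMPKβ1-/- PF libraries. For Prdx2 the log2 fold change was −0.51 (SE 0.090) with vehicle and −0.35 (SE 0.090, adjusted p = 0.00523) with PF, and with the trend removed −0.19 and 0.010 (adjusted p = 0.897), so the call was lost. For Prdx5 it was −0.40 (SE 0.088) with vehicle and −0.31 (SE 0.088, adjusted p = 0.00949) with PF, and with the trend removed it turned to 0.21 and 0.17 (adjusted p = 0.0383). The median over all tested genes was then 0.12 with vehicle and 0.10 with PF. Exons of Prdx2 share 173 bases with Junb and 177 with Rnaseh2a, and those of Prdx5 share 409 bases with Trmt112, in each case on the opposite strand. The library kit keeps strand, but whether the quantification used it is not given in the sources used here.

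Of the superoxide dismutases, Sod1 stood lower in AMPKβ1-/- BMDMs and Sod2 did not, and removal of the GC and length trend turned both. Sod1 had 416, 335 and 302 CPM in WT vehicle, 342, 361 and 319 in WT PF, 290, 259 and 284 in AMPKβ1-/- vehicle and 247, 268 and 246 in AMPKβ1-/- PF libraries. Sod2 had 119, 125 and 135 CPM in WT vehicle, 120, 127 and 135 in WT PF, 138, 146 and 142 in AMPKβ1-/- vehicle and 128, 148 and 137 in AMPKβ1-/- PF libraries. The genotypes did not overlap for Sod1 under either treatment, while for Sod2 they overlapped with PF. The log2 fold change of Sod1 was −0.34 (SE 0.10) with vehicle and −0.43 (SE 0.10, adjusted p = 0.00315) with PF. That of Sod2 was 0.17 (SE 0.079) with vehicle and 0.11 (SE 0.079, adjusted p = 0.265) with PF. Both turned with the GC and length trend removed. Sod1 went to 0.13 with vehicle and 0.16 (adjusted p = 0.0188) with PF, and Sod2 to −0.74 and −0.63 (adjusted p = 0.00058). The median over all tested genes then stood at 0.12 with vehicle and 0.10 with PF. Sod2 was the member of lowest GC content, at 42.2%, and of greatest transcript length, at 5861 bases.

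Cat was the member that stood higher in AMPKβ1-/- libraries without overlap under both treatments. It had 134, 160 and 156 CPM in WT vehicle, 169, 165 and 185 in WT PF, 170, 202 and 203 in AMPKβ1-/- vehicle and 198, 186 and 192 in AMPKβ1-/- PF libraries. The lowest AMPKβ1-/- PF library was only just above the highest WT PF library. The log2 fold change was 0.35 (SE 0.090) with vehicle and 0.15 (SE 0.089, adjusted p = 0.179) with PF, and with the trend removed 0.50 and 0.35 (adjusted p = 0.00573).

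Gpx3, whose fall led to the choice of the group, is left out of the counts of calls with PF unless stated. Of the 8 other members, AMPKβ1-/- against WT with PF gave 5 lower (Gpx4, Prdx6, Sod1, Prdx2 and Prdx5) and 0 higher at an adjusted p below 0.05. Of these, Prdx2 was lost and Sod1 and Prdx5 turned with the GC and length trend removed. Among all tested genes, 22.9% were lower and 24.1% were higher. Beyond a log2 fold change of 0.8, the threshold of the study, lay Gpx3 alone. The median log2 fold change was −0.35 over the members and −0.0012 over all tested genes, and with the trend removed the members' median was 0.010. The libraries of 8 members did not overlap (6 lower, Gpx3 among them, and 2 higher), and neither did those of 59.9% of all tested genes. With vehicle, as a description of the contrast of the earlier results, 8 of 9 members did not overlap (6 lower, 2 higher) beside 62.9% of all tested genes, and the median was −0.34 over the members and −0.026 over all tested genes. With the GC and length trend removed, Sod2, Prdx6 and Gpx4 were lower and Gpx1, Cat, Prdx5 and Sod1 higher with PF. Among all tested genes 11.9% were then lower and 27.5% higher, and their median moved to 0.10. Scaling by library size alone moved that median to 0.15 and gave 5 members lower, a count that includes Gpx3, and 3 higher. Over 10665 tested genes with a known GC content, the log2 fold change between genotypes had a Spearman correlation with GC content of −0.76 with vehicle and −0.56 with PF. The part of GC content in the differences of single members was not tested beyond these values.

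**Figure D2:**
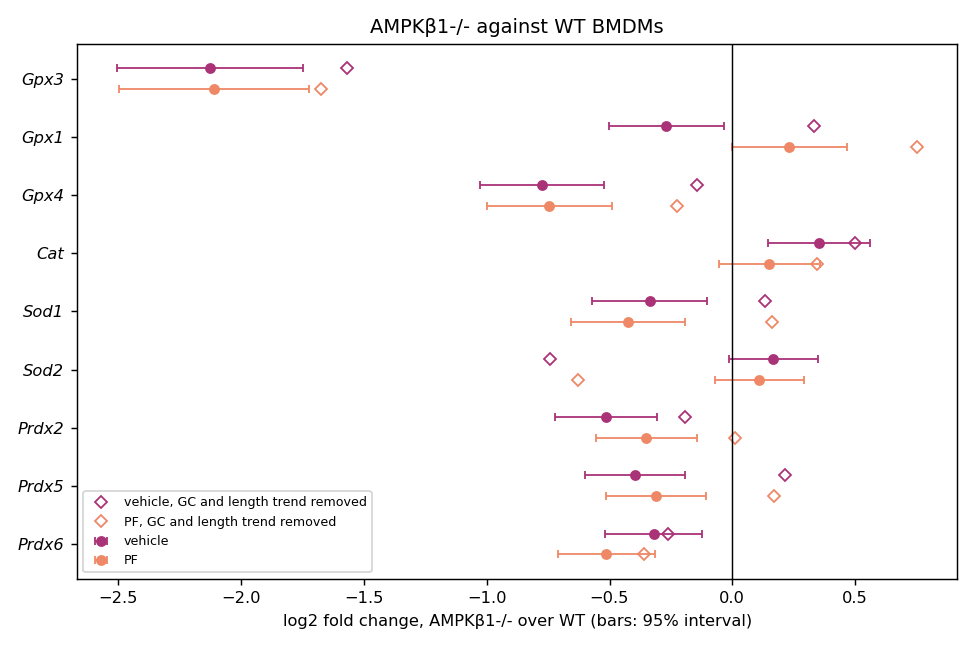
Log2 fold change of AMPKβ1-/- over WT BMDMs (x axis) for each of the 9 genes (y axis), with vehicle and with PF. Filled points with bars are the fitted values with approximate 95% intervals, and open diamonds are the values with the GC and length trend of each library removed. For all genes with vehicle, and for Gpx3 with PF, the bars describe the spread between libraries and are not tests, since these values led to the choice of the group. Gpx3 lies near −2.1 in both treatments and at −1.57 and −1.68 with the trend removed, while removal of the trend changes the sign of Sod1, Prdx5 and Sod2 in both treatments, of Gpx1 with vehicle and of Prdx2 with PF. Removal of the trend also puts the median over all tested genes at 0.12 with vehicle and 0.10 with PF.

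**Figure D3:**
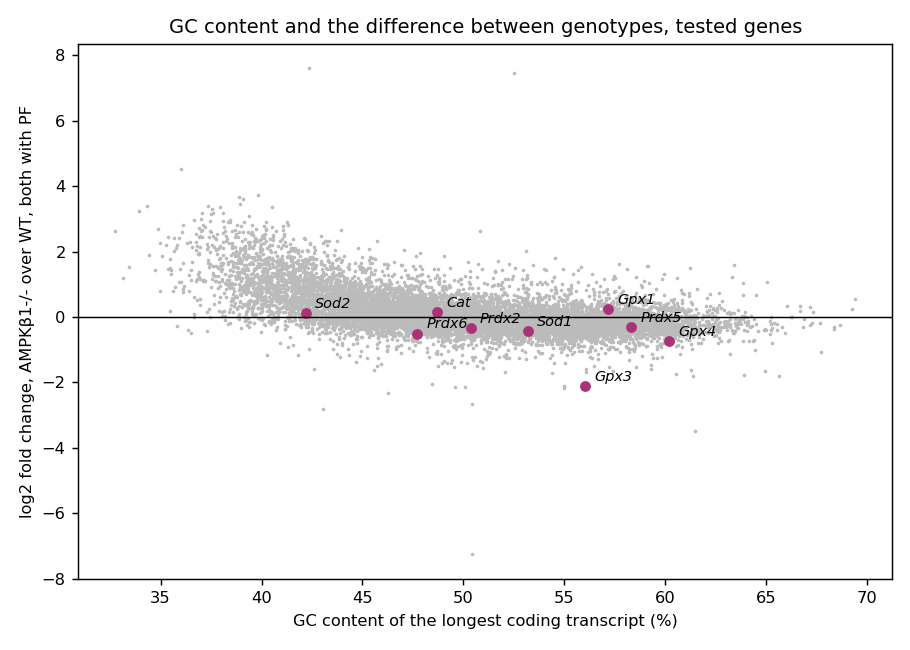
GC content of the longest coding transcript in percent (x axis) against the log2 fold change of AMPKβ1-/- over WT BMDMs, both with PF (y axis). Grey points are tested genes and purple points the 9 members, of which Gpx3, at −2.11, is the 11th lowest of the 10822 tested genes.

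PF against vehicle in WT BMDMs changed 1 of the 9 members at an adjusted p below 0.05. Gpx1 fell from 1006 ± 131 to 735 ± 77.1 CPM (SD, n = 3), to 0.731 times the vehicle level, and no PF library reached the lowest vehicle library (log2 fold change −0.45, SE 0.10, adjusted p = 0.0116). Among all tested genes, 8.95% were lower and 6.99% higher. The call was lost without vehicle library 1 (adjusted p = 0.0536), without PF library 3 (adjusted p = 0.0718) and when the fit held no AMPKβ1-/- libraries (adjusted p = 0.0570). With the GC and length trend removed, Gpx1 had a log2 fold change of −0.27 (adjusted p = 0.0396) and Prdx2 passed as well, with −0.23 (adjusted p = 0.0149), beside 2.56% lower and 4% higher among all tested genes.

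The libraries of 3 members did not overlap between vehicle and PF in WT BMDMs, beside 32.2% of all tested genes. These were Gpx1, Prdx2 and Cat. Prdx2 differed by −0.25 on the log2 scale (SE 0.090, adjusted p = 0.0621). Cat differed by 0.21 (SE 0.090, adjusted p = 0.117). For Gpx3, the log2 fold change was −0.31 (SE 0.15, adjusted p = 0.151), with −0.17 without vehicle library 1 and −0.20 without PF library 3. With the GC and length trend removed it was −0.098 (adjusted p = 0.613). The other 5 members lay between −0.14 for Prdx5 and 0.070 for Prdx6, with adjusted p from 0.264 to 0.913. The median was −0.096 over the members and 0.0048 over all tested genes. Over 10665 tested genes with a known GC content, the log2 fold change with PF in WT had a Spearman correlation with GC content of −0.71. The vehicle libraries in this contrast are those that showed the fall of Gpx3 used in choosing the group.

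In AMPKβ1-/- BMDMs, PF changed 0 of the 9 members by edgeR at an adjusted p below 0.05, 0 had an unadjusted p below 0.05, and DESeq2 and limma-voom likewise called 0. Among all tested genes, 0.0554% were higher and 0% lower. The libraries of 0 members were free of overlap, beside 14.5% of all tested genes. Gpx3 had the largest value, a log2 fold change of −0.30 with an approximate 95% interval from −0.71 to 0.12, and leaving out 1 library moved it between −0.46 (without PF library 2) and −0.13 (without PF library 3). The other 8 members lay between −0.13 for Sod1 and 0.049 for Gpx1, with intervals that stayed between −0.37 and 0.28.

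The response to PF in WT minus that in AMPKβ1-/- BMDMs was tested as an interaction, in which 0 of 9 members passed by edgeR, DESeq2 or limma-voom, beside 0.176% of all tested genes with a larger and 0.24% with a smaller value in WT. One member had an unadjusted p below 0.05. For Gpx1 the difference was −0.50 (SE 0.14, approximate 95% interval −0.83 to −0.17, adjusted p = 0.143), and over the 21 alternative settings its adjusted p ran from 0.0465, without WT PF library 1, to 0.315. A different response of Gpx1 in the genotypes was therefore not established, although its WT fall passed the test and its AMPKβ1-/- value did not. For the other 8 members the difference ran from −0.16 for Prdx2 to 0.20 for Cat, and for Gpx3 it was −0.014 with an interval from −0.56 to 0.53.

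**Figure D4:**
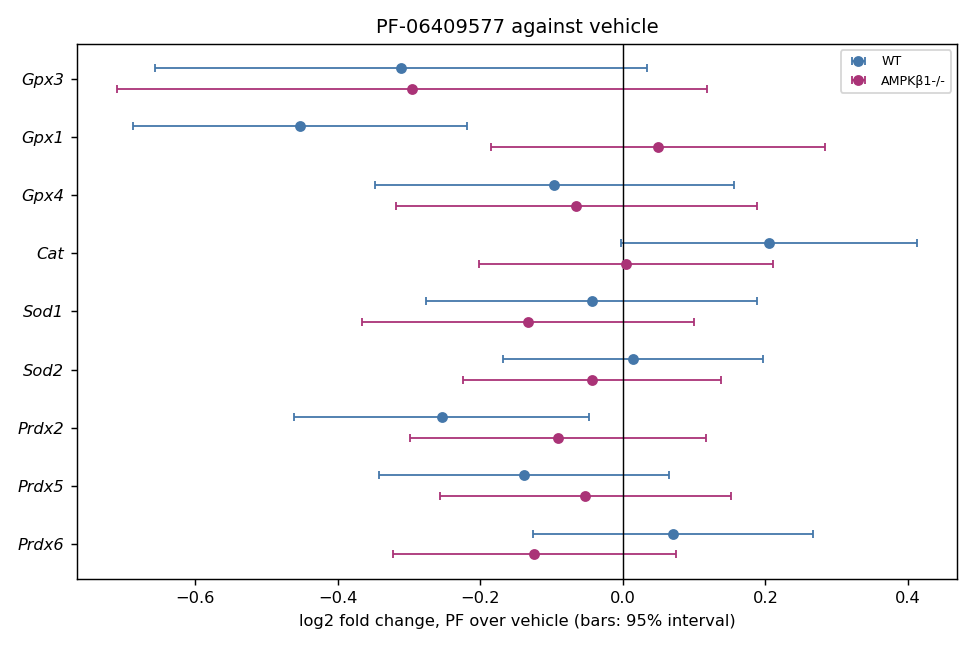
Log2 fold change of PF over vehicle (x axis) for each of the 9 genes (y axis) in WT and AMPKβ1-/- BMDMs. Points are fitted values and bars approximate 95% intervals. The WT intervals of Gpx1 and Prdx2 exclude 0, and every AMPKβ1-/- interval includes 0. That of Cat in WT just includes 0 (−0.0022 to 0.41), although its unadjusted p was 0.0369 by the edgeR test.

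Of the remaining glutathione peroxidases, superoxide dismutases and peroxiredoxins, 3 of 9 genes were tested, Prdx1, Prdx3 and Prdx4. Prdx1, a cytosolic peroxiredoxin, moved opposite to Gpx1 with PF in WT BMDMs, from 392 ± 37.6 to 513 ± 21.9 CPM (log2 fold change 0.39, SE 0.078, adjusted p = 0.00683), and its level was 485 ± 23.96 CPM in AMPKβ1-/- vehicle and 438 ± 9.25 CPM in AMPKβ1-/- PF libraries. Its interaction was 0.54 (SE 0.11, adjusted p = 0.0480, with 0.00144 to 0.196 over 9 alternative settings that keep all 12 libraries). With PF its AMPKβ1-/- level was below the WT level (log2 fold change −0.23, adjusted p = 0.0250). With the GC and length trend removed the PF response of Prdx1 in WT was 0.026 (adjusted p = 0.881), its interaction 0.32 (adjusted p = 0.196) and its difference between genotypes −0.65 (adjusted p = 7.82e-06). Prdx4, the peroxiredoxin of the endoplasmic reticulum, was lower in AMPKβ1-/- BMDMs with PF (log2 fold change −0.38, adjusted p = 0.0150) and had 0.083 (adjusted p = 0.470) with the trend removed.

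The genes that feed these enzymes were counted in lists, each with the same background shares as above. Over all lists other than the members, with the macrophage markers described below included, 20 genes passed with PF in WT. Of these, 6 passed with the same direction once the GC and length trend was removed, and 0 turned. The 6 include the markers Csf1r, Itgam and Cd14. Among all tested genes, PF in WT gave 6.99% higher and 8.95% lower, and 4% higher and 2.56% lower with the trend removed. Of the 44 that passed between genotypes with PF, markers again included, 19 passed with the same direction with the trend removed and 11 turned. Here 24.1% of all tested genes were higher and 22.9% lower, and 27.5% higher and 11.9% lower with the trend removed. Of 15 thioredoxin and glutaredoxin genes, PF in WT raised Txn1 (log2 fold change 0.49), the thioredoxin that recharges peroxiredoxins, and lowered Sesn2 (−0.48), a sestrin, and both calls were lost with the trend removed (0.26, adjusted p = 0.0918, and −0.17, adjusted p = 0.352). With PF, 4 were higher in AMPKβ1-/- than in WT BMDMs, with Sesn3 (0.73) and Glrx (0.64) furthest, and 3 lower, with Glrx5 (−0.48) and Txnip (−0.41), the thioredoxin inhibitor, furthest. Removal of the trend gave 7 higher and 3 lower, and Sesn3 (0.19, adjusted p = 0.395) and Glrx5 (−0.20, adjusted p = 0.0966) no longer passed. Of 11 genes of glutathione synthesis and recycling, PF in WT raised Idh1 (0.40) and lowered Pgd (−0.36) and G6pdx (−0.35), which supply NADPH, of which Idh1 (0.087, adjusted p = 0.538) and Pgd (−0.15, adjusted p = 0.127) were lost with the trend removed. Between genotypes with PF, Gclm (0.45), the modifier subunit of the enzyme that starts glutathione synthesis, was higher, and Chac1 (−1.65), which degrades glutathione, Gss (−0.36), glutathione synthetase, and Slc3a2 (−0.34), a subunit of the cystine transporter, were lower, of which Gclm turned to −0.28 (adjusted p = 0.144) and Gss to 0.012 (adjusted p = 0.941) with the trend removed. Chac1 (−1.22, adjusted p = 0.0927) and Slc3a2 (−0.042, adjusted p = 0.539) then no longer passed, and the list had 3 higher and 1 lower. Chac1 had few counts, 6 to 23 in WT PF and 2 to 7 in AMPKβ1-/- PF libraries.

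Of 20 selenoproteins and genes that place selenocysteine, a list that does not hold the 3 selenocysteine members, PF in WT raised Selenok (0.35) and Selenos (0.30) and lowered Selenom (−0.41) and Selenon (−0.32), and with the trend removed none of these 4 passed (adjusted p from 0.0588 to 0.788). In AMPKβ1-/- against WT with PF, 4 were higher, with Selenot (1.496) and Secisbp2l (1.29) furthest, and 5 lower, with Msrb1 (−0.63) and Trnau1ap (−0.59) furthest. Selenot had a GC content of 39.3% and Msrb1 one of 55.2%. With the trend removed, 9 of the 20 were higher and 1 lower, and Msrb1 (−0.15, adjusted p = 0.0524) and Trnau1ap (−0.10, adjusted p = 0.389) no longer passed.

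Of 10 tested NADPH oxidase genes and other sources of oxidants, PF in WT lowered Rac2 (−0.37) and Ncf1 (−0.36) and raised 0, and Ncf1 was lost with the trend removed (−0.16, adjusted p = 0.0570). With PF, Cybb (0.51), the catalytic subunit of the phagocyte oxidase, was higher in AMPKβ1-/- than in WT BMDMs, and 4 were lower, with Cyba (−0.74), the membrane partner of Cybb, and Hvcn1 (−0.72), a proton channel, furthest. With the trend removed Cybb had −0.092 (adjusted p = 0.205), while Cyba (−0.16, adjusted p = 0.0155) and Hvcn1 (−0.41, adjusted p = 0.000121) stayed lower, and the list had 4 higher and 3 lower. Of 20 peroxisome genes, the compartment of catalase, PF in WT raised 3, with Abcd3 (0.68) and Pex2 (0.68) furthest, and lowered 2, among them Pex6 (−0.38). With the trend removed Pex2 (0.32, adjusted p = 0.133) and Pex6 (−0.047, adjusted p = 0.661) no longer passed, and the list had 1 higher and 0 lower. Between genotypes with PF, 1 was higher, Pex2 (0.44), and 5 lower, with Pex16 (−0.57) furthest. These became 2 higher and 2 lower with the trend removed, and Pex2 (0.14, adjusted p = 0.331) and Pex16 (−0.11, adjusted p = 0.380) no longer passed.

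Of 7 tested genes that supply metals to the superoxide dismutases, PF in WT changed 0 by edgeR. Between genotypes with PF, Atp7a (1.27), a copper pump, was higher, and Atox1 (−0.38) and Ccs (−0.36), the copper chaperone of Sod1, were lower, of which Atox1 turned to 0.25 (adjusted p = 0.0211) and Ccs to 0.16 (adjusted p = 0.0862) with the trend removed, when 3 were higher and 1 lower. Of 11 FOXO, NRF2 and PGC-1 regulators, which control transcription of antioxidant genes, PF in WT changed 0 by edgeR. Between genotypes with PF, Bach1 (0.82), a repressor at NRF2 sites, and Foxo3 (0.33) were higher and Mafk (−0.55) and Keap1 (−0.43), which holds NRF2 down, were lower. With the trend removed 3 were higher and 1 lower, and Mafk no longer passed (−0.23, adjusted p = 0.140). In AMPKβ1-/- BMDMs PF changed 0 genes of every list by edgeR. Among the 8 macrophage markers, which moved in these same libraries, PF in WT lowered Csf1r (−0.58), Cd14 (−0.43) and Itgam (−0.39), and between genotypes with PF Itgam (0.67) and Adgre1 (0.39) were higher and Cd68 (−0.64) and Fcgr1 (−0.42) lower. With the trend removed 4 markers were lower with PF in WT, and between genotypes 5 were higher and 1 lower and Fcgr1 no longer passed (−0.13, adjusted p = 0.306). The part of the markers in the results of the 9 members was not tested, and in bulk RNA fewer cells of a kind and less RNA per cell cannot be told apart.

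Across the 12 libraries the log2 CPM of Gpx3 ran with that of Gpx4 (Pearson r = 0.97), Prdx6 (0.95), Prdx2 (0.94), Prdx5 (0.93) and Sod1 (0.91), and opposite to that of Cat (−0.81) and Sod2 (−0.72). Gpx1 had r = 0.16 with Gpx3 and 0.035 with Prdx6. Among 7832 tested genes with a mean of at least 10 CPM, the 5 with the highest r to Gpx3 were Hexa (0.994), Dhcr7 (0.993), Snx8 (0.992), Ano10 (0.989) and Tmem86a (0.988). With vehicle, the log2 fold changes of these 5 genes between genotypes were −0.68, −0.71, −0.57, −0.58 and −0.77, each smaller than that of Gpx3. The 12 points fall into the 2 genotypes and share library depth and the GC slope given above, so these values describe the libraries and carry no test.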

How the data were processed

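RNA of 12 BMDM libraries was analysed in 4 groups of 3. The authors trimmed reads with Trim Galore, quantified transcripts with Salmon and applied DESeq2, and the deposited values are Salmon's estimated counts per gene as whole numbers, not normalized. The genome build, the versions and the strand setting of Salmon are not given in the sources used here. Column names gave the group of each library, but their numbers match no sample label, so libraries are numbered as the columns are.

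Counts were tested in R 4.3.3 with edgeR 4.0.16 (glmQLFit robust, glmQLFTest, TMM, filterByExpr by group) in 1 fit of 4 group means, with Benjamini-Hochberg adjustment over 10822 genes. SE were derived from the fold and its F statistic, and 95% intervals are approximate. The intervals use the residual degrees of freedom alone, without those that edgeR adds from the other genes. They can therefore include 0 where the unadjusted p is below 0.05. The script was checked on simulated data. Log2 CPM used a prior count of 2. GC content and length came from the longest coding transcript in GENCODE M21, which was found for 12703 genes under their symbol and for 4 under an older one but not for 253. Their trend per library (natural splines, 5 degrees of freedom each) was removed as an offset. No 2 libraries of a group were identical, and pairs differed by 2.16 to 17.8 times the variance from counting alone. A count of 0 allows up to 3 counts, which covers counting error only.

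The alternatives were DESeq2 size factors, upper quartile scaling, library size alone, no filter, at least 10 counts in every library, DESeq2 1.42.0, limma-voom (limma 3.58.1), separate fits per contrast, the trend removal, leaving out each library and, added after the column names were seen, a replicate block. Members and lists were chosen with earlier results of these data known. Named were all members, of each list up to 2 genes furthest in each direction among those past the threshold, the 5 genes most correlated with Gpx3, and Prkab1. Genes that overlap a member were named after their annotation was seen. Some genes that the rule would name are not reported here.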

Additional observations from a re-analysis of the deposited data

Results flagged for a closer look

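The response of Prdx1 to PF differed between the genotypes by the test of the difference itself. The log2 fold change of PF over vehicle was 0.39 in WT BMDMs (SE 0.078) and −0.15 in AMPKβ1-/- BMDMs (SE 0.078), a difference of 0.54 (SE 0.11, adjusted p = 0.0480, edgeR). It kept its sign under 9 of 9 alternative settings and passed under 7 of them. These settings keep all 12 libraries, and leaving out single libraries was not examined for Prdx1. Removal of the GC and length trend left 0.32 (adjusted p = 0.196).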

How the results depend on the processing

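Gpx4, Prdx6 and Sod1 passed in AMPKβ1-/- against WT with PF under all 16 alternatives, Sod1 with the opposite sign in 1 of them, and Gpx3, Gpx4 and Prdx6 kept their direction. PF in WT changed 1 member, against 0 in a fit to the libraries of the contrast, 2 with the GC and length trend removed and 2 with the replicate block, where Prdx2 was added (adjusted p = 0.0452). Leaving out 1 library gave 0 to 2 members for PF in WT, 0 to 1 for the interaction (Gpx1 without WT PF library 1) and 0 for PF in AMPKβ1-/- BMDMs. Between genotypes with PF it gave 6 to 7, a count that includes Gpx3 (Gpx1 added without WT PF library 1). The block was an added alternative: deviations of libraries with the same column number correlated between −0.17 and 0.32, with 4 of 12 above 0.1, which gave no pairing of the libraries. Direction changed with the trend removed, on the log2 scale, for PF in WT in Gpx4 (0.12), Sod2 (−0.32), Prdx5 (0.088) and Prdx6 (−0.0017). It also changed for PF in AMPKβ1-/- BMDMs in Gpx4 (0.035) and Prdx5 (0.042), and for the interaction in Gpx3 (0.11), Gpx4 (0.082), Sod1 (−0.029), Sod2 (−0.11) and Prdx5 (0.046). For AMPKβ1-/- against WT with vehicle it changed in Gpx1 (0.33), Sod1 (0.13), Sod2 (−0.74) and Prdx5 (0.21), and with PF in Sod1 (0.16), Sod2 (−0.63), Prdx2 (0.010) and Prdx5 (0.17). With the trend removed, the median over all tested genes was 0.041 for PF in WT, 0.027 for PF in AMPKβ1-/- BMDMs and 0.014 for the interaction. Between genotypes it was 0.12 with vehicle and 0.10 with PF. Scaling by library size turned Sod1 for PF in WT (0.040) and the interactions of Gpx3 (0.050) and Gpx4 (0.033), as did the upper quartile (0.018 and 0.0013), and in a fit to the libraries of the contrast Cat turned for PF in AMPKβ1-/- BMDMs (−0.000299). With library size alone Prdx5 lost its call between genotypes with PF (adjusted p = 0.0885), and 71.7% of all calls there were higher, against 51.3% with TMM. Leaving out 1 library gave ranges that cross 0 for PF in WT of −0.21 to 0.047 (Gpx4), −0.14 to 0.096 (Sod1) and −0.025 to 0.064 (Sod2), and for PF in AMPKβ1-/- BMDMs of −0.020 to 0.097 (Gpx1), −0.076 to 0.047 (Cat) and −0.097 to 0.0074 (Sod2). For the interaction they were −0.18 to 0.15 (Gpx3), −0.14 to 0.11 (Gpx4), −0.0082 to 0.23 (Sod1) and −0.16 to 0.012 (Prdx5). Of the alternative values of single members, 691 kept direction and side of the threshold. For the genotypes with vehicle, which carry no test, this means direction kept and a shift below the SD within groups. Of the others, 44 turned direction, 13 gained and 4 lost the call, and 13 values with vehicle moved further. The causes were not tested. Depth and 3 libraries a group limit what could be detected.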
